A study of Mus musculus with 8 samples.

Results

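Genes that encode the precursors of neuropeptides and peptide hormones were followed in isolated pituitary gonadotropes, the cells that make luteinizing hormone and follicle-stimulating hormone. The members were 53 genes chosen by their symbols from the 55523 entries of the count table, and each symbol matched exactly 1 entry. The cells were EGFP-positive cells sorted by flow cytometry from pituitary glands of Ad4BP-BAC-EGFP mice, with 4 female and 4 male samples. All samples carried this transgene, in which a bacterial artificial chromosome of the *Nr5a1* (Ad4BP) locus drives EGFP, and no non-transgenic or whole pituitary sample was used here. The age of the mice and the number of animals behind a sample are not given in the sources used here, so that p-values measure the spread between these samples, which may in part be technical. Male replicate 1 was set aside by the study and entered no fit of the main comparison. Its values are given apart, and males stand for male replicates 2 to 4 unless stated otherwise.

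The total count was between 18774578 and 31302588 per sample. Levels are given as CPM, the counts of a gene per 1000000 counts of its sample, where TMM factors of edgeR (trimmed mean of M values) adjusted the sample totals. A gene without counts could have been at up to 3 counts, which is 0.0958 to 0.160 CPM of the unscaled totals. This limit takes in counting error alone, since copies made by PCR were not told from separate molecules. Of the gonadotrope markers, *Cga* was at least 12836 CPM and *Lhb* at least 4139 CPM in all 8 samples, whereas *Nr5a1* ranged from 584 to 1266 CPM in 7 samples and was 16.3 CPM in male replicate 1. The sorted cells also carried RNA of other endocrine cells, with *Gh* between 12394 and 142244 CPM and *Pomc* between 10140 and 28580 CPM. *Gh* alone was above the sum of the 6 gonadotrope markers, given below, in all samples but female replicate 1 and male replicate 2. The levels below are thus those of the sorted samples and not of gonadotropes alone. In bulk samples, fewer cells of a type and less RNA per cell cannot be told apart.

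Neuropeptides and peptide hormones are made as long precursors that enter the secretory pathway, where prohormone convertases cut them after pairs of basic residues. Carboxypeptidases then trim the basic residues, and a glycine left at the end is turned into an amide by peptidylglycine alpha-amidating monooxygenase, which many of these peptides need for full activity. In the anterior pituitary such peptides are known as local signals between endocrine cells, endothelium and folliculostellate cells, beside their better known roles in the hypothalamus and gut.

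The coding sequences of the GENCODE M21 principal transcripts (mm10, GRCm38) show these signals, and a complete one was found for 52 of the 53 members. The encoded precursors were between 77 residues for *Apln* and 482 residues for *Agt* long, and each held between 1 and 12 positions at which 2 basic residues, lysine or arginine, adjoin. *Penk*, the precursor of the enkephalins, and *Trh* held the most, with 12 each. A glycine followed by 2 basic residues, the letters of an amidation signal, was found in 31 of the 52 precursors and in 14 of the 23 whose genes passed the filter on low counts. The opioid precursors are shown first because they repeat 1 short peptide. *Penk* encoded 6 copies of Met-enkephalin and 1 of Leu-enkephalin, *Pdyn*, the dynorphin precursor, encoded 3 copies of Leu-enkephalin, and *Pnoc*, the nociceptin precursor, held the related core with phenylalanine in first place. In the lines below, capitals mark the 5 codons of the peptide core and lower case the 2 codons on either side.
Penk copy 1, chr4:4134328-4134354, minus strand: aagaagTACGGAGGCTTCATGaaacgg
Penk copy 2, chr4:4134307-4134333, minus strand: aaacggTACGGAGGCTTCATGaagaag
Penk copy 3, chr4:4134220-4134246, minus strand: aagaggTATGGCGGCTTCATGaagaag
Penk copy 4, chr4:4134067-4134093, minus strand: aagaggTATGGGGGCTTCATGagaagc
Penk copy 5, chr4:4133995-4134021, minus strand: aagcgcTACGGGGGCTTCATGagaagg
Penk copy 6, chr4:4133935-4133961, minus strand: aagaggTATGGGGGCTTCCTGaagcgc
Penk copy 7, chr4:4133842-4133868, minus strand: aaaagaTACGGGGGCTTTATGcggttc
Pdyn copy 1, chr2:129688232-129688258, minus strand: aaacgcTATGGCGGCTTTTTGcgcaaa
Pdyn copy 2, chr2:129688124-129688150, minus strand: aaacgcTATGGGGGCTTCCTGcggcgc
Pdyn copy 3, chr2:129688067-129688093, minus strand: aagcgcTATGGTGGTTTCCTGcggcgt
Pnoc, chr14:65404872-65404898, minus strand: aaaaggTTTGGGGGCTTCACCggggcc

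Copy 6 of *Penk* is the Leu-enkephalin copy. All copies but 2 of *Penk* were flanked by codons of basic residues on both sides, and the exceptions, copies 4 and 7, continued into longer enkephalins. The 3 cores of *Pdyn* also had basic codons on both sides, and that of *Pnoc* had them on the 5′ side only. The next lines give the amidation signals of precursors whose level is described below, in 36 bases each, where capitals mark the codons of the glycine and the 2 basic residues and lower case the last 9 codons of the peptide before it. They are those of substance P and neurokinin A (*Tac1*), calcitonin gene-related peptide (*Calca*), adrenomedullin (*Adm*), cholecystokinin (*Cck*), PHI and vasoactive intestinal peptide (*Vip*).
Tac1 site 1, chr6:7556738-7556773, plus strand: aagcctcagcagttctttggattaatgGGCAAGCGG
Tac1 site 2, chr6:7559104-7559139, plus strand: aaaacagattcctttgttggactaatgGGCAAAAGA
Calca, chr7:114632461-114632496, minus strand: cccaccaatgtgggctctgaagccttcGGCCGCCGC
Adm site 2, chr7:110629019-110629054, plus strand: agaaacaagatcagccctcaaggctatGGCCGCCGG
Cck, chr9:121490098-121490133, minus strand: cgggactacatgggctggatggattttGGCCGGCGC
Vip site 1, chr10:5643587-5643622, plus strand: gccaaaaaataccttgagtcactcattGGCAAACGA
Vip site 2, chr10:5644081-5644116, plus strand: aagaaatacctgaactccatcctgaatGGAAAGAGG

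No count was found in any of the 8 samples for 16 of the 53 genes, or 30.2%, against 42.1% of all entries of the table. These were *Adcyap1*, *Prlh*, *Sst*, *Ppy*, *Pyy*, *Gast*, *Tac2*, *Gcg*, *Pmch*, *Npy*, *Nms*, *Kiss1*, *Calcb*, *Trh*, *Npvf* and *Ghrh*. They include the hypothalamic factors somatostatin, thyrotropin-releasing hormone, growth hormone-releasing hormone and PACAP, the gut hormone gastrin, glucagon of the pancreatic islets, and kisspeptin, which stimulates GnRH neurons. *Kiss1* shares its assembled locus with *Golt1a*, so that its 0 counts could depend on how reads were divided there, which was not tested.

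A further 14 genes had counts in some samples and did not pass the filter of the test. *Gnrh1*, which encodes gonadotropin-releasing hormone, had 13 counts in male replicate 1 and 0 in the other 7 samples. *Nts*, the neurotensin precursor, had 12 counts in male replicate 3 and 0 elsewhere, and *Avp*, the vasopressin precursor, had 9 counts in female replicate 2, 17 in male replicate 3 and 0 elsewhere. *Adm2* reached the highest value of this set, 1.30 CPM in female replicate 4. *Cort*, *Nppa*, *Nppb*, *Agrp*, *Ghrl*, *Rln1*, *Insl3*, *Npw*, *Uts2* and *Uts2b* stayed under 1 CPM in every sample, and none of the 14 had counts in all 8 samples.

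The other 23 genes passed edgeR's filter on low counts. A level of 1 CPM or more in every sample was met by 16 of the 53 genes in females, by 16 in males and by 13 in both, so that 19 met it in at least 1 sex. The sum over the 53 genes was between 202 and 315 CPM in the 8 samples, and *Apln*, *Penk*, *Agt* and *Cck* made up between 40.7% and 65.7% of it in the 7 samples compared. The sum was 315 CPM in female replicate 1 and 219 to 228 CPM in the remaining females, against 204, 202 and 278 CPM in the males and 227 CPM in male replicate 1. The precursors thus took a small part of the RNA in every sample, and the sums of the sexes overlapped.

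**Figure D1:**
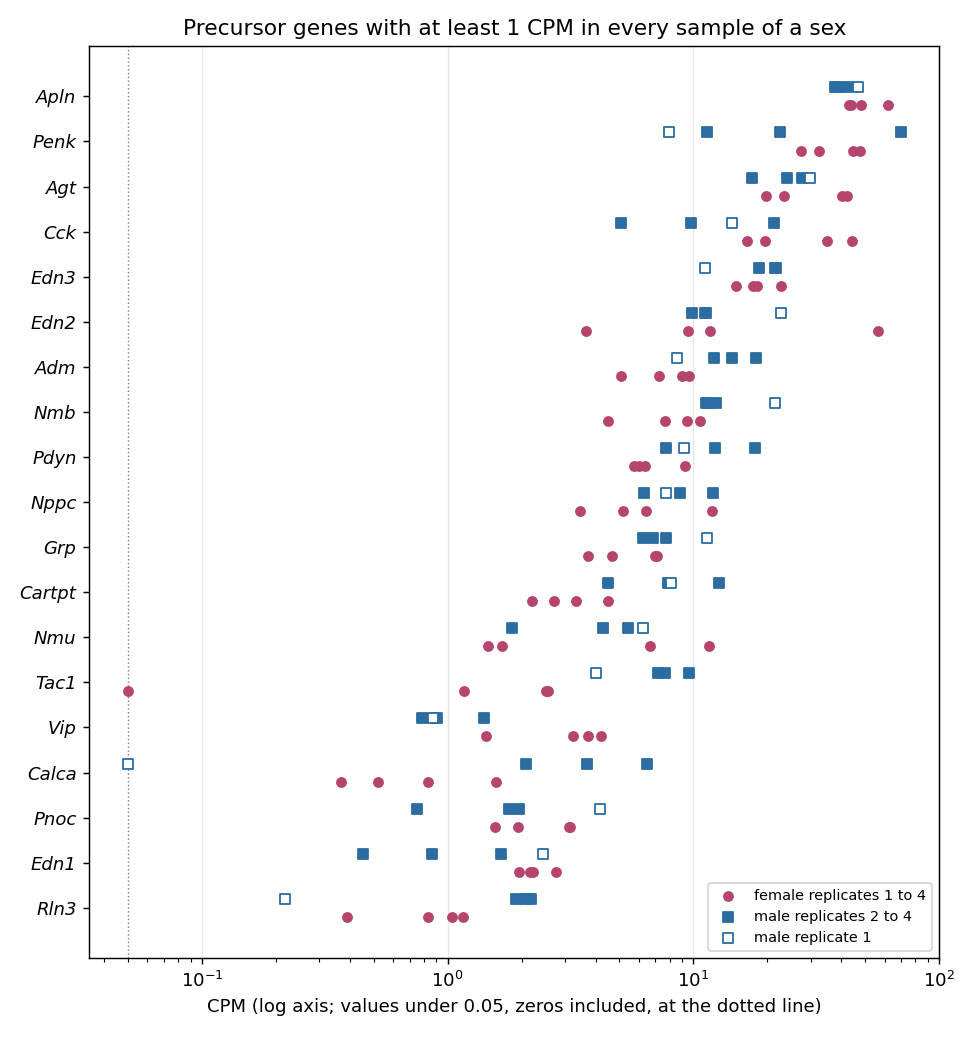
CPM of the 19 precursor genes with at least 1 CPM in every sample of a sex, on a log axis, with 1 point per sample (circles, females; filled squares, male replicates 2 to 4; open square, male replicate 1). The sexes are to be compared within a gene, since CPM is not scaled for length. The filled squares of Tac1, Nmb, Calca, Adm and Rln3 lie to the right of all female circles and those of Vip, Edn1 and Apln to the left. The open squares of Adm (8.60 CPM) and Edn1 (2.44 CPM) lie among the circles and that of Calca is at 0.

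Levels of different genes were compared as CPM per kb of the gene's exonic length in GENCODE M21, averaged over the 7 samples. *Penk* was highest at 22.3 CPM per kb (range 6.99 to 42.6), followed by *Cck* at 16.5 (3.88 to 33.7), *Agt* at 14.7 (9.13 to 22.3), *Apln* at 14.3 (11.9 to 19.6), *Nmb* at 12.1 (5.66 to 15.6) and *Edn2* at 11.1 (2.5 to 38.7). *Nppc* (7.40), *Adm* (6.65), *Nmu* (5.67), *Edn3* (4.68), *Cartpt* (4.23), *Grp* (4.19) and *Pdyn* (3.23 CPM per kb) came next, and the remaining 10 tested genes were between 0.441 for *Hcrt* and 2.16 for *Rln3*. The order also differed between the sexes, as *Cck* had a mean of 22 CPM per kb in females and 9.23 in males, where *Nmb* (14.8), *Apln* (12.6) and *Agt* (12.2 CPM per kb) were above it. For each of the 22 pairs of neighbours in this order the ranges over samples overlapped, so that the order of neighbours is not separated by these samples.

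**Figure D2:**
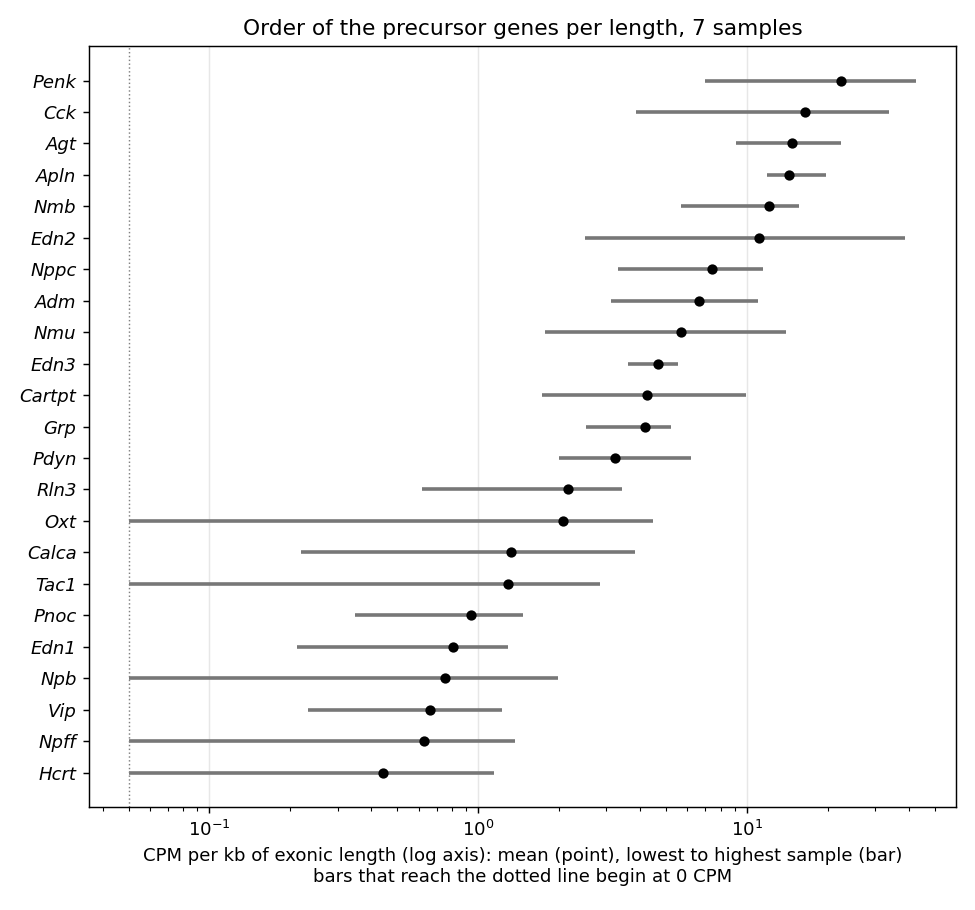
Level of the 23 tested precursor genes in CPM per kb of exonic length, on a log axis, as the mean of 7 samples (point) and the range from the lowest to the highest sample (bar). Each bar overlaps the bar below it, from Penk at a mean of 22.3 to Hcrt at 0.441.

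Females and males were compared across the 20152 genes that passed the filter, of which 2.34% had an adjusted p under 0.05 (edgeR's quasi-likelihood test, Benjamini-Hochberg adjustment). None of the 23 precursor genes did. In simulated data the fit recovered only 66.7% of genes given a log2 change of 3, so that changes can be missed. With an unadjusted p under 0.05 there were 8 precursor genes, 34.8% of the 23 against a background of 19.9% of all genes tested. The 6 with higher levels in males were *Calca*, *Adm*, *Cartpt*, *Rln3*, *Pdyn* and *Tac1*, and the 2 with higher levels in females were *Vip* and *Edn1*. Of all 20152 genes tested, 1876 with such a p were higher in males and 2133 in females. DESeq2 gave 5 precursor genes an adjusted p under 0.05, against 11.7% of all genes to which it gave one. They were *Calca*, *Adm*, *Cartpt* and *Rln3*, higher in males, and *Vip*, higher in females.

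The samples of the sexes did not overlap for 9 of the 23 genes, or 39.1%, against 22.3% of all genes tested. All males were above all females for *Tac1*, *Nmb*, *Calca*, *Adm* and *Rln3*, 5 genes where the background was 11.5%, and below all females for *Vip*, *Edn1*, *Npb* and *Apln*, 4 genes where it was 10.8%. For males over females the median log2 fold change was −0.16 over the 23 genes and −0.03 over all genes tested. With counts of this size a single gene moves these shares by several percent, and no test of the list was made. The members were also chosen with earlier results of these data known.

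**Figure D3:**
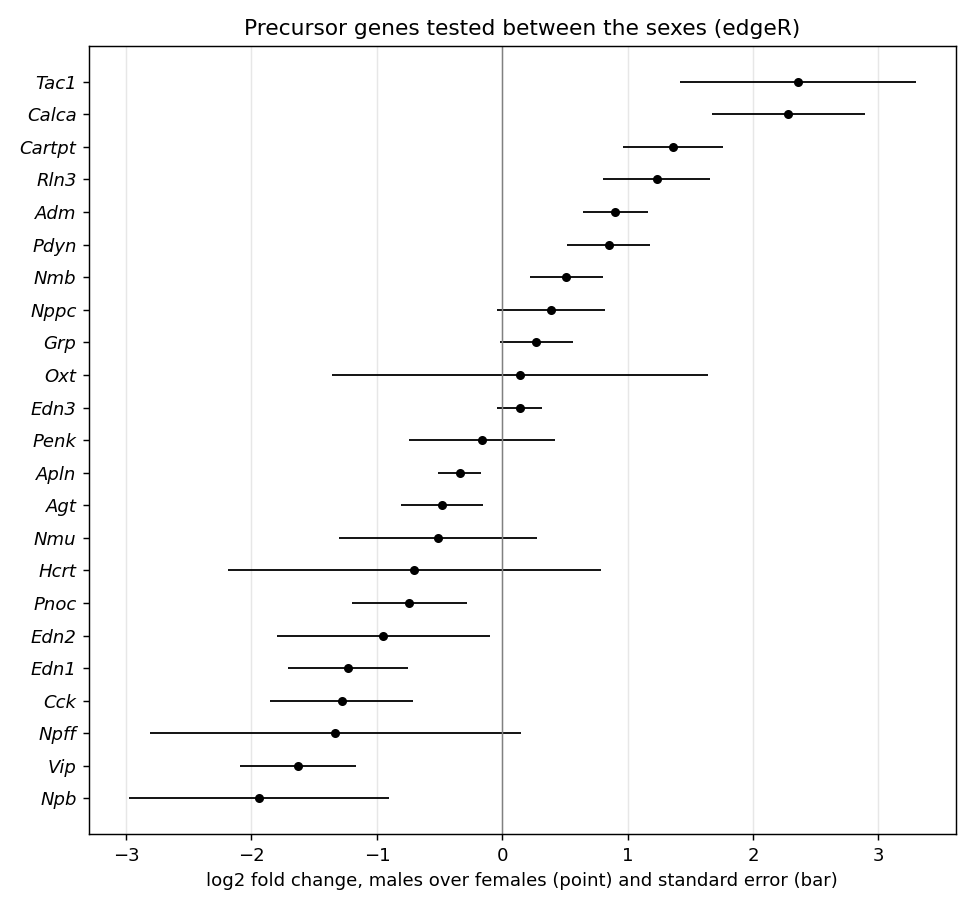
Log2 fold change of males over females (point) with its standard error (bar) for the 23 tested precursor genes, from edgeR. Tac1, at 2.36, and Calca, at 2.28, have the highest values and Npb, at −1.94, and Vip, at −1.63, the lowest, and no gene had an adjusted p under 0.05.

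Among the opioid precursors, *Penk* was 47.4, 44.5, 27.4 and 32.4 CPM in female replicates 1 to 4 and 11.4, 22.4 and 69.7 CPM in male replicates 2 to 4. The males spanned the whole female range on both sides, with an SD of 30.9 CPM around a mean of 34.5 CPM (n = 3), and male replicate 1 was lower still at 7.95 CPM. The log2 fold change was −0.16 (standard error 0.58, adjusted p = 0.921), and it was 0.26 without male replicate 2, 0.08 without male replicate 3 and −1.21 at its lowest when another sample was left out. The somatotrope hormone *Gh* was 30128, 65329, 77150 and 142244 CPM in male replicates 1 to 4, where *Penk* had the same order, and 12394, 57859, 46865 and 51830 CPM in the females, where it had not, and its part in the *Penk* values was not tested. *Pdyn* was 6.37, 9.27, 5.98 and 5.75 CPM in the females and 7.76, 12.2 and 17.8 CPM in the males, and only female replicate 2 reached into the male range, as did male replicate 1 at 9.12 CPM. Its log2 fold change was 0.85 (standard error 0.33, adjusted p = 0.210). *Pnoc* was lower, at 3.16, 1.56, 1.93 and 3.11 CPM in the females and 0.749, 1.77 and 1.95 CPM in the males, and was highest in male replicate 1, at 4.15 CPM.

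The tachykinin precursor *Tac1* was 2.52, 0, 1.17 and 2.55 CPM in the females, 7.68, 7.21 and 9.63 CPM in males and 4.02 CPM in male replicate 1. All males, male replicate 1 included, were above all females, and female replicate 2, with 0 counts, stood apart from the others, which had 38 to 59. The log2 fold change was 2.36 (standard error 0.94, adjusted p = 0.228). *Nmb*, which encodes the bombesin-like neuromedin B, was 4.49, 10.6, 9.39 and 7.65 CPM in the females and 12.3, 11.3 and 11.5 CPM in the males, with a log2 fold change of 0.51 (standard error 0.29, adjusted p = 0.404). Its assembled locus also holds *Sec11a*, which overlaps it on the same strand. *Sec11a* was 179, 39.5, 47.4 and 186 CPM in the females and between 196 and 232 CPM in the males, low in the females with more *Nmb*, and its part in the *Nmb* values was not tested. *Grp*, the other mammalian bombesin-like precursor, was 4.66, 7.12, 3.71 and 6.96 CPM in the females and 6.23, 6.87 and 7.72 CPM in the males, which overlapped.

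*Nmu*, the precursor of neuromedin U, was 6.63, 1.46, 1.66 and 11.6 CPM in the females, 5.40, 4.30 and 1.82 CPM in the males and 6.24 CPM in male replicate 1. The males lay within the female range. Its log2 fold change of −0.51 (standard error 0.79, adjusted p = 0.792) became 0.23 without female replicate 4. *Npff*, the neuropeptide FF precursor, was 1.37, 0, 0.767 and 1.25 CPM in the females, 0, 0.340 and 0.681 CPM in the males and 4.23 CPM in male replicate 1. It lies in an assembled locus with *Atf7*, which ranged from 30.9 to 42.1 CPM in 7 samples and was 8.85 CPM in male replicate 4, so that reads of both could be divided between them.

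*Calca* encodes calcitonin and calcitonin gene-related peptide by alternative splicing, which counts per gene do not separate. It was 1.58, 0.829, 0.368 and 0.519 CPM in the females and 3.70, 2.08 and 6.45 CPM in the males, which lay above all females. Male replicate 1 had 0 counts. The log2 fold change was 2.28 (standard error 0.61, adjusted p = 0.0991), from means of 0.825 ± 0.540 CPM (SD, n = 4) and 4.08 ± 2.21 CPM (SD, n = 3). With DESeq2 the adjusted p was 0.00863, and over all alternatives it was between 0.00863 and 0.657, the latter with all 8 samples. *Adm*, which encodes the vasodilator adrenomedullin of the same family, was 9.62, 8.98, 7.27 and 5.06 CPM in the females and 17.9, 14.4 and 12.1 CPM in the males, with no overlap. The log2 fold change was 0.90 (standard error 0.26, adjusted p = 0.120), with an adjusted p between 0.0304 (DESeq2) and 0.407 over the alternatives. In male replicate 1 *Adm* was 8.60 CPM, inside the female range.

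*Cck*, the cholecystokinin precursor, was 44.0, 19.6, 16.5 and 34.8 CPM in the females and 9.77, 5.06 and 21.3 CPM in the males, with 14.3 CPM in male replicate 1. The sexes overlapped through male replicate 4, and the log2 fold change was −1.28 (standard error 0.57, adjusted p = 0.268), or −1.99 without that sample. *Cartpt*, which encodes the cocaine- and amphetamine-regulated transcript peptide, was 3.34, 2.20, 2.70 and 4.50 CPM in the females, 7.88, 4.49 and 12.7 CPM in the males and 8.08 CPM in male replicate 1. Female replicate 4 and male replicate 3 were alike, and the other males were above all females. The log2 fold change was 1.36 (standard error 0.40, adjusted p = 0.127), and the adjusted p was between 0.0316 (DESeq2) and 0.278 over the alternatives.

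*Vip*, known in the pituitary as a stimulus of prolactin release, was 3.25, 4.2, 3.71 and 1.43 CPM in the females and 0.788, 0.906 and 1.41 CPM in the males. Each female was above each male, although female replicate 4 was so by a narrow margin, and male replicate 1, at 0.873 CPM, lay among the other males. The log2 fold change was −1.63 (standard error 0.46, adjusted p = 0.113), and the adjusted p was between 0.0157 (DESeq2) and 0.383 over the alternatives. *Prl* was 4671, 18125, 6937 and 6780 CPM in the females and 11609, 6227 and 15681 CPM in the males, which overlapped, and its part in the *Vip* values was not tested.

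The 3 endothelins, vasoconstrictor peptides that share their receptors, differed from each other in pattern. *Edn1* was 2.22, 1.95, 2.76 and 2.16 CPM in the females and 1.65, 0.453 and 0.863 CPM in the males, below all females, with a log2 fold change of −1.23 (standard error 0.48, adjusted p = 0.215). Male replicate 1, at 2.44 CPM, was inside the female range. *Edn2* was 56.6 CPM in female replicate 1 and 3.66, 11.7 and 9.47 CPM in the other females, whereas the males were close together at 11.2, 11.1 and 9.85 CPM. Its log2 fold change of −0.95 (standard error 0.85, adjusted p = 0.615) became 0.36 without female replicate 1. *Edn3*, at 17.4, 18.2, 22.7 and 14.9 CPM in the females and 21.7, 18.5 and 21.5 CPM in the males, was the most even of the 3, with a log2 fold change of 0.14 (standard error 0.18, adjusted p = 0.751).

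*Apln*, the precursor of the vascular peptide apelin, was 61.7, 43.1, 47.9 and 43.8 CPM in the females and 37.6, 38.7 and 42.3 CPM in the males. All females were above all males, by 49.1 ± 8.65 CPM (SD, n = 4) against 39.5 ± 2.48 CPM (SD, n = 3), at a log2 fold change of −0.34 (standard error 0.17, adjusted p = 0.330). Male replicate 1, at 46.9 CPM, lay among the females. *Agt*, which encodes angiotensinogen, was 23.3, 42.2, 40.4 and 19.7 CPM in the females and 24.0, 27.7 and 17.3 CPM in the males, with 29.9 CPM in male replicate 1. Female replicates 2 and 3 were high and the others lay with the males, so that the sexes overlapped (log2 fold change −0.48, standard error 0.33, adjusted p = 0.485). *Nppc*, the C-type natriuretic peptide precursor, was 11.9, 3.46, 5.16 and 6.40 CPM in the females and 12.0, 8.80 and 6.31 CPM in the males and 7.77 CPM in male replicate 1, with a log2 fold change of 0.39 (standard error 0.43, adjusted p = 0.691).

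*Rln3*, which encodes the neuropeptide relaxin-3, was 1.15, 0.390, 0.829 and 1.04 CPM in the females and 2.09, 1.89 and 2.18 CPM in the males, at a log2 fold change of 1.23 (standard error 0.43, adjusted p = 0.180). The males were above all females with 48 to 53 counts each against 8 to 27, and male replicate 1 had 5 counts. Over the alternatives its adjusted p was between 0.0459 (DESeq2) and 0.753. *Npb*, the neuropeptide B precursor, was 0.470, 0.293, 1.07 and 0.562 CPM in the females and 0.276, 0.189 and 0 CPM in the males, with at most 7 counts in these males, and 0.742 CPM in male replicate 1. *Hcrt*, the orexin precursor, and *Oxt*, the oxytocin precursor, passed the filter with at most 20 and 53 counts in 1 of the 7 samples compared. *Oxt* was at 0 in female replicate 1 and male replicate 3 and 0.951 to 2.41 CPM elsewhere, and *Hcrt* was at 0 in female replicate 4 and male replicate 3.

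The enzymes and granins that process and pack the precursors were read beside them from a list of 22 genes, in 23 entries because *Pam* has 2. Of these entries 3 had an adjusted p under 0.05, all higher in males, which is 13.0% against 2.34% of all genes tested, and 9 (39.1% against 19.9%) had an unadjusted p under 0.05. The list was chosen with earlier results of these data known, and it was not tested as a whole. The summed somatotrope, thyrotrope, gonadotrope, and stromal and mural markers, given below, were also higher in all males than in all females, and their part in the processing and receptor genes called was not tested. *Chgb*, the granule protein chromogranin B, was 1599, 1891, 2212 and 2186 CPM in the females and 6575, 5259 and 4820 CPM in the males (log2 fold change 1.46, standard error 0.17, adjusted p = 0.0163). *Qpct*, which forms the N-terminal pyroglutamate of peptides such as GnRH, had a log2 fold change of 1.53 (standard error 0.21, adjusted p = 0.0276), from 128 ± 23.8 CPM (SD, n = 4) to 377 ± 89.7 CPM (SD, n = 3). *Scg5*, the chaperone 7B2 of prohormone convertase 2, had a log2 fold change of 0.77 (standard error 0.11, adjusted p = 0.0275), from 1457 ± 42.6 CPM (SD, n = 4) to 2538 ± 238 CPM (SD, n = 3). In male replicate 1 the 3 genes were at 1792, 116 and 1309 CPM, and none of the 3 had an adjusted p under 0.05 with all 8 samples. With 1 of the 7 samples left out, between 1 and 3 entries had one, and 1 entry without female replicate 2 or 3 or male replicate 2 or 3.

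*Chga* and *Scg2* were the other high genes of that list. *Chga* had a female mean of 2293 ± 913 CPM (SD, n = 4) and a male mean of 5634 ± 1687 CPM (SD, n = 3), with an adjusted p = 0.0921, and was 7303 CPM in male replicate 1. *Scg2* was 9047, 20.1, 7771 and 21.3 CPM in the females, between 90.8 and 138 CPM in the males and 18159 CPM in male replicate 1. Such steps within a sex are of a kind that a division of reads among assembled entries could also give, and this was not tested. *Pcsk1*, the convertase that makes the first cuts, was 210 ± 111 CPM (SD, n = 4) and 880 ± 191 CPM (SD, n = 3) with an adjusted p = 0.0633. *Cpe*, the carboxypeptidase, was 791 ± 176 CPM (SD, n = 4) and 539 ± 25.1 CPM (SD, n = 3) with an adjusted p = 0.150. These were at 288 and 573 CPM in male replicate 1.

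Of the 69 receptor genes of these peptides, 43 passed the filter and 4 had an adjusted p under 0.05, or 9.30% against 2.34% of all genes tested, of which 1 was higher in males and 3 in females. An unadjusted p under 0.05 was found for 14, or 32.6% against 19.9%. This list too was chosen with earlier results of these data known and was not tested as a whole. *Ramp1* encodes the membrane protein that turns the receptor CALCRL into the receptor of calcitonin gene-related peptide. It was 18.0, 11.4, 12.8 and 8.52 CPM in the females and 36.5, 39.1 and 49.6 CPM in the males (log2 fold change 1.69, standard error 0.27, adjusted p = 0.0352), and 27.8 CPM in male replicate 1, while *Calcrl* itself had a log2 fold change of 0.34 (standard error 0.21, adjusted p = 0.438). *Ramp1* and its ligand gene *Calca* thus had higher means in males, and only *Ramp1* passed the test. *Oprk1*, the kappa opioid receptor that binds dynorphins, was 2.05, 8.98, 4.27 and 4.37 CPM in the females and 0.709, 0.529 and 0.318 CPM in the males (log2 fold change −3.27, standard error 0.60, adjusted p = 0.0470), the opposite direction to the means of *Pdyn*, and 0.393 CPM in male replicate 1.

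*Ednra*, the endothelin A receptor, was 14.8, 20.0, 16.1 and 12.1 CPM in the females and 4.06, 5.02 and 2.18 CPM in the males (log2 fold change −2.10, standard error 0.33, adjusted p = 0.0350), with 3.32 CPM in male replicate 1. *Ednrb* was 158 ± 38.8 CPM (SD, n = 4) and 139 ± 28.4 CPM (SD, n = 3), with an adjusted p = 0.670, and 15.9 CPM in male replicate 1. *Npr1*, the receptor of atrial and brain natriuretic peptides, was between 12.6 and 14.5 CPM in the females and between 6.86 and 8.36 CPM in the males (log2 fold change −0.90, standard error 0.16, adjusted p = 0.0442), and 22.4 CPM in male replicate 1. *Npr2*, the receptor of the peptide of *Nppc*, was 33.1, 32.2, 15.0 and 30.0 CPM in the females and 13.0, 13.7 and 14.9 CPM in the males, with an adjusted p = 0.122, and 30.6 CPM in male replicate 1.

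The 4 receptor genes with the highest mean CPM were *Gnrhr*, *Ednrb*, *Adcyap1r1* and *Ramp2*. *Gnrhr* was 1062 ± 455 CPM (SD, n = 4) and 1809 ± 500 CPM (SD, n = 3), with an adjusted p = 0.318, and *Adcyap1r1*, the PACAP receptor, was 80.3 ± 41.5 CPM (SD, n = 4) and 79.4 ± 29.3 CPM (SD, n = 3), with an adjusted p = 0.964. In male replicate 1 they were at 473 and 165 CPM. The genes of their ligands, *Gnrh1* and *Adcyap1*, had no count in these 7 samples. *Ramp2* was 1.11, 10.8, 114 and 0.0865 CPM in the females and 135, 133 and 0.999 CPM in the males and 124 CPM in male replicate 1, and shares its assembled locus with *Vps25*. Which genes of this list were called changed when a sample was left out: between 0 and 2 receptor genes had an adjusted p under 0.05, with none when any 1 of the males or female replicate 2 or 4 was left out.

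**Figure D4:**
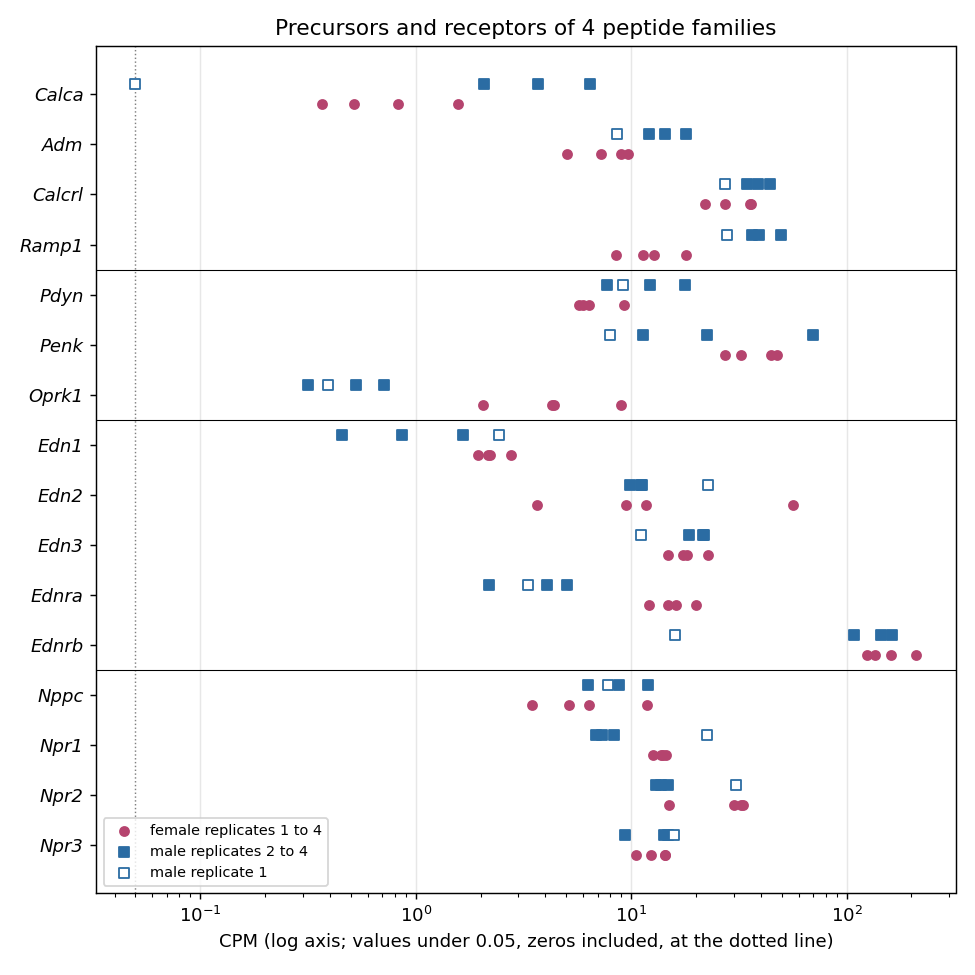
CPM of precursor and receptor genes of 4 peptide families on a log axis, 1 point per sample (circles, females; filled squares, male replicates 2 to 4; open square, male replicate 1), to be compared within a gene. The filled squares of Ramp1, Calca and Adm lie right of all female circles, and those of Oprk1, Ednra, Npr1, Npr2 and Edn1 left of them. The open square is at 0 for Calca, among the circles for Edn1 and right of them for Npr1, at 22.4 CPM.

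Male replicate 1 lay outside the range of the other males for 17 of the 23 precursor genes, or 73.9%, of which 11 were above and 6 below. Over all genes tested it did so for 69.9%, so that the precursors stood apart in this sample about as often as other genes. *Nmb* was 21.5 CPM there against 11.3 to 12.3 CPM in the other males, *Grp* was 11.4 CPM against 6.23 to 7.72 CPM and *Edn2* was 22.7 CPM against 9.85 to 11.2 CPM. *Edn3*, at 11.1 CPM against 18.5 to 21.7 CPM, *Penk*, *Adm*, *Tac1*, *Calca* and *Rln3* were below the range.

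Markers of cells other than gonadotropes were summed for the cell types that are known sources of these peptides. The 7 endothelial markers, whose cells make endothelin 1, apelin and adrenomedullin, summed to between 507 and 672 CPM in the females, between 516 and 700 CPM in the males and 902 CPM in male replicate 1. The 3 somatotrope markers summed to 12414 to 57901 CPM in the females, 65451 to 142446 CPM in the males and 30178 CPM in male replicate 1. The sums of the 3 thyrotrope markers (84.6 to 224 CPM, 278 to 384 CPM and 105 CPM), of the 8 stromal and mural markers (235 to 260 CPM, 264 to 514 CPM and 176 CPM) and of the 6 gonadotrope markers (21596 to 34941 CPM, 67977 to 75754 CPM and 28522 CPM) likewise did not overlap between the females and male replicates 2 to 4.

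The genes within these lists did not all move with their sum. Of the thyrotrope markers, *Tshb* was 20.9 to 83.5 CPM in the females and 235 to 339 CPM in the males, whereas *Dio2* was 63.2 to 139 CPM and 39.0 to 49.5 CPM. Of the stromal and mural markers, the mural gene *Rgs5* was 85.4 to 123 CPM in the females and 147 to 399 CPM in the males, whereas the fibroblast collagens *Col1a1* (5.37 to 13.1 CPM and 2.95 to 4.27 CPM) and *Col3a1* (6.93 to 9.54 CPM and 1.93 to 4.45 CPM) were lower in all males than in all females. *Pdgfrb*, the other mural marker (10.9 to 19.4 CPM and 6.08 to 12.1 CPM), and the fibroblast markers *Col1a2* (35.0 to 50.5 CPM and 27.7 to 37.5 CPM), *Dcn*, *Lum* and *Pdgfra* overlapped between the sexes. Of the gonadotrope markers, *Fshb* was 1402 to 5699 CPM in the females and 16894 to 30905 CPM in the males, whereas *Nr5a1* (862 to 1266 CPM and 584 to 801 CPM) and *Foxl2* (78.7 to 108 CPM and 37.1 to 64.6 CPM) were lower in all males. *Lhb* (4139 to 6519 CPM and 6286 to 9610 CPM), *Cga* (13359 to 25090 CPM and 24630 to 50707 CPM) and *Gnrhr* (657 to 1559 CPM and 1245 to 2199 CPM) overlapped. The somatotrope sum was nearly all *Gh*. *Pou1f1* (16.3 to 35.6 CPM and 62.7 to 142 CPM) was also higher in all males, whereas *Ghrhr* (2.95 to 25.7 CPM and 8.94 to 60.7 CPM) overlapped. The lactotrope, corticotrope and melanotrope, stem, endothelial, immune, erythroid, pituicyte and neuronal sums overlapped. Within these lists 5 genes did not overlap, with *Angpt1* of the lactotrope list (11.5 to 15.9 CPM in the females and 23.9 to 35.3 CPM in the males) and *Slc17a6* of the neuronal list (11.6 to 20.1 CPM and 23.6 to 25.8 CPM) higher in all males. *Sox2* of the stem cell list (49.5 to 77.8 CPM and 29.8 to 37.1 CPM), *Hbb-bs* of the erythroid list (62.7 to 217 CPM and 20.8 to 53.6 CPM) and *Rbfox3* of the neuronal list (3.5 to 9.38 CPM and 2.84 to 3.0 CPM) were lower in all males. No marker of these lists was at 0 in all samples, although *Cd3e*, a marker of T cells, reached at most 0.214 CPM. The part of any of these cells in the level of any precursor, processing or receptor gene described here was not tested.

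Promoter windows were read from RefSeq (GRCm38.p6), because NR5A1 binds DNA at sites of the form AAGGTCA or AAGGCCA. The locus of its gene drives the EGFP by which the cells were sorted. A window of 300 bases, from 250 before to 50 after the start, was found for 44 of the 53 members, in 51 windows. AAGGTCA was found on either strand in 3 of the 51 windows, those of *Ghrh*, *Oxt* and *Rln3*, and in 4.72% of the 32851 windows of all genes. AAGGCCA was found in 6 of them, those of *Adcyap1*, *Agt*, *Edn3*, *Ghrh*, *Nmb* and *Uts2b*, and in 6.20% of all windows. TGACG, the core of the cyclic AMP response element, was found in 16 of the 51 windows and in 20.8% of all windows, and the full element TGACGTCA, which contains it, in those of *Cartpt* and *Sst* and in 1.79% of all windows. A match of letters is a description and not a binding site. Of the 4 genes with the highest mean CPM, *Apln*, *Penk*, *Agt* and *Cck*, the windows of *Apln*, *Agt* and *Cck* follow, with matches to these letters on either strand in capitals.
Apln, chrX:48034804-48035103, minus strand: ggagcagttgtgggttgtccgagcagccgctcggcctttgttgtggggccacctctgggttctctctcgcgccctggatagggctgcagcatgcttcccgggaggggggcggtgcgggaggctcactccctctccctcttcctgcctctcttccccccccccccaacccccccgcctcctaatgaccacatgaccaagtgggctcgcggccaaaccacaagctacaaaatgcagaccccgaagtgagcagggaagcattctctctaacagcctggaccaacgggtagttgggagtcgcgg
Agt, chr8:124569657-124569956, minus strand: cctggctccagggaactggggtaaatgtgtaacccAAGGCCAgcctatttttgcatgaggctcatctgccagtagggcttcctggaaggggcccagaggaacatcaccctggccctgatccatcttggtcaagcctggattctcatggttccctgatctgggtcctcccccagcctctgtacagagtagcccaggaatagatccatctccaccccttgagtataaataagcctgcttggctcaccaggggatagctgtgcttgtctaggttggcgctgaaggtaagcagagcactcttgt
Cck, chr9:121495645-121495944, minus strand: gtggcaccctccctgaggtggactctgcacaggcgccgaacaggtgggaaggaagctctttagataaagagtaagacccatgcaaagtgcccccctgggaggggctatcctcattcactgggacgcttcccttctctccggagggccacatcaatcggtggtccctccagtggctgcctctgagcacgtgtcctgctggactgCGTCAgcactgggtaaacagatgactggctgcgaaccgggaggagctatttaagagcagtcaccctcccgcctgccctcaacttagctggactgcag

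The window of *Apln* held none of these letters, that of *Agt* held AAGGCCA, and that of *Cck* held TGACG on the opposite strand.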

How the data were processed

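RNA was measured in EGFP-positive sorted cells of 4 female and 4 male samples. The authors deposited counts per gene, without normalization. Per the labels and the study's methods, reads were trimmed with cutadapt, mapped to mm10 (GRCm38) with STAR and counted with featureCounts at default settings. Which annotation was used is not given in the sources used here. Every entry carries a symbol, and 28933 entries, 33 of the 53 members among them, are named by an assembled (MSTRG) locus, a form that StringTie gives and the methods do not mention. The default of featureCounts ignores strand, so antisense neighbours cannot be told apart.

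The 4 females and male replicates 2 to 4 entered the quasi-likelihood test of edgeR (version 4.0.16, R 4.3.3) with TMM factors, filterByExpr and Benjamini-Hochberg adjustment at 0.05. The standard error was the absolute log2 fold change divided by the square root of F. DESeq2 (version 1.42.0), other scalings, no filter, all 8 samples, a replicate block, robust dispersion and leaving out each sample were alternatives. The fit was tested on simulated data of the same comparison, in which 192 of 19168 genes had a log2 change of 3. It recovered 66.7% of these, and 1.54% of its calls were false, so that even large changes can be missed. The members and lists were chosen with earlier results of these data known. Genes with at least 1 CPM in every sample of a sex were described in full, with the called and the 4 highest genes of the other lists. Protein sequences were not used here.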

Additional observations from a re-analysis of the deposited data

Results flagged for a closer look

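Samples that lay far from the other 3 of their group were sought, among the 53 precursor genes and the 7 called processing and receptor genes, in 82 groups of 4 with at least 3 counts in a sample, by the gap of the highest or lowest sample as a share of the range (Dixon's criterion for 4 samples). In 14 groups only 1 sample had counts, a case that passes this limit by construction. These were *Nts* in male replicate 3 (0.453 CPM), *Cort* (0.218 CPM), *Gnrh1* (0.568 CPM), *Nppa* (0.218 CPM), *Rln1* (0.218 CPM) and *Uts2* (0.393 CPM) in male replicate 1, *Avp* in female replicate 2 (0.439 CPM) and male replicate 3 (0.642 CPM), *Adm2* (1.30 CPM) and *Uts2b* (0.389 CPM) in female replicate 4, and *Nppb* (0.123 CPM), *Rln1* (0.982 CPM), *Insl3* (0.491 CPM) and *Npw* (0.338 CPM) in female replicate 3.

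Of the 68 groups with counts in at least 2 samples, 6 passed the limit, where chance gives about 3.40 if genes are not chosen by their values. The 7 called genes were chosen by a test without male replicate 1, so that this number does not hold for that sample in them, *Npr1* included. *Edn2* had 1324 counts or 56.6 CPM in female replicate 1, and its other females had 3.66 to 11.7 CPM. The remaining 5 concerned male replicate 1, with *Npff* at 4.23 CPM, where the other males had 0 to 0.681 CPM, *Nmb* at 21.5 CPM against 11.3 to 12.3 CPM, *Edn2* at 22.7 CPM against 9.85 to 11.2 CPM, *Rln3* at 0.218 CPM against 1.89 to 2.18 CPM and the receptor *Npr1* at 22.4 CPM against 6.86 to 8.36 CPM. *Edn2* was thus far from the rest in 1 sample of each sex.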

How the results depend on the processing

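Against 471 genes called in the whole table (edgeR, adjusted p under 0.05), 2329 were called with DESeq2, 808 with library size alone, 177 with no filter beyond 1 count, 67 with all 8 samples, 0 with a replicate block and between 88 and 171 with 1 sample left out. None of the precursor genes was called under these settings other than the 5 with DESeq2. The 3 calls among the processing genes became 7 with DESeq2, 0 with all 8 samples, 0 with the replicate block and between 1 and 3 with 1 sample left out. The 4 calls among the receptors became 11, 2, 0 and between 0 and 2 in the same order, with 1 call without the filter and 6 with library size alone. With library size alone all genes had a median log2 fold change of −0.24, and 16.5% rather than 42.0% of calls were higher in males. A limit of 5 CPM in every sample was met by 7 members in females and 12 in males.

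The replicate numbers are shared between the sexes, but for replicates 2, 3 and 4 the deviations of samples with the same number had correlations of −0.0354, −0.00235 and 0.00468 across genes, so that these were taken to share only a number. The pair of replicates 1 was not computed, since male replicate 1 was not in the fit. Of 317 log2 fold changes of precursor genes under an alternative, 298 kept their direction and side of the threshold, 5 passed it with DESeq2 and 14 reversed, in 7 genes. The reversals were *Npff* at 0.63, *Edn3* at −0.01 and *Hcrt* at 0.28 with all 8 samples, *Oxt* at −0.09 and *Edn3* at −0.08 with library size alone, and *Nmu* at 0.33, *Oxt* at −1.23 and *Edn2* at 0.48 with the replicate block. With 1 sample left out, *Nmu* was between −0.83 and 0.23, *Penk* between −1.21 and 0.26, *Oxt* between −0.92 and 0.72 and *Edn2* between −1.28 and 0.36. Leaving out 1 sample also moved *Npff* to −2.31 and *Hcrt* to −1.73 (without male replicate 4) or −0.11 (without male replicate 3), and *Npb* to −2.60 (without male replicate 2). Their causes were not tested. Depth limits the sparse members, where 0 counts allow up to 0.0958 to 0.160 CPM.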
